A study of Homo sapiens with 9 samples.

Results

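The nuclear subunits of the respiratory chain are described here in MDA-MB-453 cells, a human breast cancer line labelled triple-negative, cultured attached or in forced suspension. The genes were taken by their symbols: the NDUFA, NDUFB, NDUFC, NDUFS and NDUFV subunits, the SDH genes, CYC1 and the UQCR genes, the COX4 to COX8 genes, and the ATP5 subunits. Of 59452 rows of the gene table, 87 had such a symbol once pseudogene symbols were left out, and 80 of these had at least 10 counts in every library. These 80 subunits form complex I with 36 genes, complex II with 4, complex III with 10, complex IV with 12 and complex V with 18. NDUFA4, a subunit of cytochrome c oxidase despite its name, was counted with complex IV. The 7 genes below the minimum, ATP5MGL, COX4I2, COX6A2, COX6B2, COX7A1, COX7B2 and COX8C, held at most 2 counts in any library.

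The respiratory chain sits in the inner mitochondrial membrane. Complex I takes electrons from NADH and complex II takes them from succinate, complex III passes them from ubiquinol to cytochrome c, and complex IV passes them to oxygen. Complexes I, III and IV pump protons, and complex V, the ATP synthase, uses the proton gradient to make ATP. Apart from complex II, each complex combines subunits from nuclear genes with subunits encoded in the mitochondrial DNA.

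RNA was sequenced from 9 libraries, 3 for each of 3 conditions: attached cells with DMSO vehicle, suspended cells with DMSO vehicle on poly-HEMA-coated plates, and suspended cells with 10 µmol/L AT0174, a dual inhibitor of the tryptophan-degrading enzymes TDO2 and IDO1. All cells were wild type and were collected at 48 hours, and replicates were described as biological triplicates of this single line. Libraries held 36649997 to 48019126 estimated counts. Of the luminal epithelial markers, KRT8, KRT18, KRT19, EPCAM, GATA3, FOXA1 and ERBB2 averaged 309 to 1250 CPM in attached cells, while KRT5, KRT14, VIM, DCN, PTPRC and CD3E had at most 3 counts in any library. Of these luminal markers FOXA1 and KRT19 were higher in suspended vehicle cells, by 0.26 and 0.15 on the log2 scale. Of the other cell types' markers COL1A1 averaged 137 CPM attached and 113 CPM in suspended vehicle cells, CD68 1.70 and 1.32 CPM, and COL1A2, PECAM1 and VWF had at most 13 counts in a library. The part of these markers in the results was not tested. Genes of the mitochondrial DNA took 7.56% to 9.32% of counts in attached cells, 4.05% to 4.34% in suspended vehicle cells and 3.73% to 5.51% with AT0174. Values are given as CPM, counts scaled by the TMM-adjusted library size, unless TPM is named. A level is a share of a library's RNA, so more transcript per cell and less RNA of other genes cannot be told apart, nor can fewer cells of a kind and less RNA per cell.

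In attached cells the subunits of one complex differed widely in transcript level per length. TPM divides the counts by effective transcript length and scales each library to the same total, which allows such a comparison. The 36 complex I genes summed to 6536 ± 215 TPM (SD, n = 3), the 18 of complex V to 5304 ± 163 TPM, the 12 of complex IV to 3284 TPM (3163 to 3352 in the 3 libraries), the 10 of complex III to 1908 ± 55.6 TPM and the 4 of complex II to 382.8 ± 14.5 TPM. The median subunit stood at 152.2 TPM in complex I, 105.5 TPM in complex II, 206.6 TPM in complex III, 217.9 TPM in complex IV and 245.1 TPM in complex V. Between the highest and the lowest gene of a complex, the level differed 35.7-fold in complex I, 2.57-fold in complex II, 66.4-fold in complex III, 11.8-fold in complex IV and 12.1-fold in complex V. The value of complex III rests on UQCRHL, a near-identical copy of the highest gene, UQCRH, at 475.5 ± 7.89 TPM. The next lowest gene was UQCRFS1, at 39.7 ± 3.43 TPM.

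The highest of all was ATP5PD, a peripheral stalk subunit of ATP synthase, at 733.7 ± 25.3 TPM in attached cells. COX6A1 of complex IV followed at 694.3 ± 16.7 TPM and NDUFB10 of the complex I membrane arm at 674.9 ± 29.7 TPM, and the ranges of mean ± SD of neighbours in this order overlapped. UQCRH, the hinge subunit that docks cytochrome c on complex III, led its complex with 475.5 ± 7.89 TPM. In complex II, SDHB, which carries the iron-sulfur clusters, had 123.7 ± 2.19 TPM and the flavoprotein SDHA 116.6 ± 4.71 TPM. The lowest genes were NDUFV3 in complex I at 18.92 ± 0.823 TPM, the membrane anchor SDHD in complex II at 48.11 ± 4.15 TPM, COX7A2L in complex IV at 58.95 ± 3.77 TPM and ATP5F1E, the epsilon subunit of the F1 head, at 60.43 ± 2.4 TPM. UQCRHL in complex III stood at 7.162 ± 0.254 TPM, but it is a near-identical copy of UQCRH, so the reads of the pair could have been split between them.

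**Figure D1:**
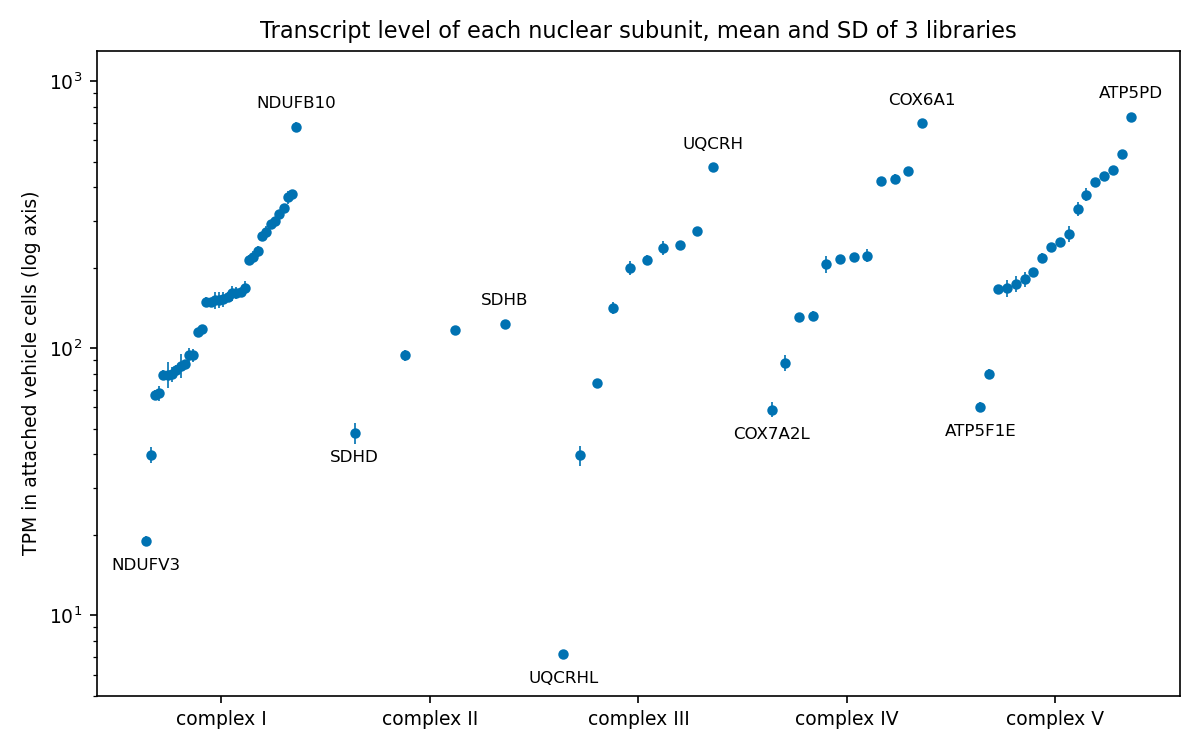
Transcript level of each of the 80 nuclear subunits in attached vehicle cells, in TPM on a log axis, by complex. Points are means of 3 libraries and bars their SD, and the highest and lowest gene of each complex are named, from ATP5PD at 733.7 TPM to UQCRHL at 7.162 TPM.

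Several subunits exist as tissue-dependent pairs, of which these cells used one side. COX4I1, the common form of the subunit next to the catalytic core, had 424.0 ± 9.26 TPM, whereas COX4I2 had no count in any library. COX6A2, COX7A1 and COX7B2 likewise had 0 counts, against 694.3 TPM of COX6A1, 206.9 ± 15.2 TPM of COX7A2 and 131.1 ± 2.72 TPM of COX7B. COX6B2 and COX8C had at most 2 counts in a library. The c ring, which turns as protons pass, is encoded by 3 genes for the same mature protein, and these were all present: ATP5MC2 at 267.8 ± 18.5 TPM, ATP5MC3 at 240.2 ± 3.82 TPM and ATP5MC1 at 80.11 ± 3.38 TPM. NDUFA4L2, the hypoxia-linked paralog of NDUFA4, had at most 28 counts in a library and was called in none of the comparisons. Its log2 fold change in suspended vehicle against attached cells was −0.33 ± 0.277 (SE), too wide to show that it did not change.

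The first comparison asked what forced suspension does to these transcripts under vehicle. Of the 80 subunits, 37 were higher in suspended than in attached cells and 0 were lower (edgeR quasi-likelihood test, Benjamini–Hochberg adjusted p under 0.05), 46.2% of them, against 21.2% of all 15528 genes tested in either direction, 10.4% higher and 10.8% lower. At an unadjusted p under 0.05, 48 were higher and 1, ATP5IF1, was lower, where 2662 and 2628 of the 15528 genes were. The 0 lower calls also held with DESeq2 and limma-voom. The steps were small: the median log2 fold change was 0.11, or 1.079-fold, against 0.00 over all genes, and the largest was 0.26. The fold change was positive for 71 of the 80, against 50% of all genes. The 3 suspended libraries all lay above the 3 attached ones for 53 subunits, where this held for 19.4% of all genes, and all below for 3, where it held for 18.7%.

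The number of calls depended on single libraries. It was 16 without attached replicate 3, and 22 without suspended vehicle replicate 2 or replicate 3, with 12.2%, 12.4% and 14.6% of all genes called in the same fits. With counts rebuilt from TPM, which removes differences in transcript length between libraries, it was 21, with 8.37% of all genes called. Attached replicate 3 had the largest share of mitochondrially encoded counts, at 9.32%, and its part in the result was not tested. The median log2 fold change lay between 0.10 and 0.12 whichever library was left out. ATP5F1B, ATP5MC3, ATP5MK, COX7A2, COX7B, COX8A, CYC1, NDUFB4, NDUFB5 and SDHC were higher in suspended cells under each of the 17 alternatives. Each of the other called genes lost its call under at least 1 of them. Among these, NDUFA8 lost it under 11, the most, ATP5F1E and ATP5MG under 9, and COX4I1, NDUFC1 and NDUFC2 under 8. UQCR11, COX7C and NDUFB8 lost it under 7, and NDUFS4, NDUFB6 and UQCRQ under 6. NDUFS1, ATP5F1A, ATP5ME and COX6A1 lost it under 5.

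The subunits have short transcripts, with a median effective length of 587 bases against 1899 over all genes tested, and 68 of the 80 were at most 1169 bases long. Among the 3882 genes tested of that length the median log2 fold change was 0.03, with 11.5% higher and 5.67% lower, and among the 68 subunits it was 0.11. The 6 subunits between 1169 and 1899 bases and the 6 between 1899 and 3019 bases had medians of 0.11 and 0.09, against −0.01 and −0.02 over all genes of those lengths. The part of length in the result was not tested.

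**Figure D2:**
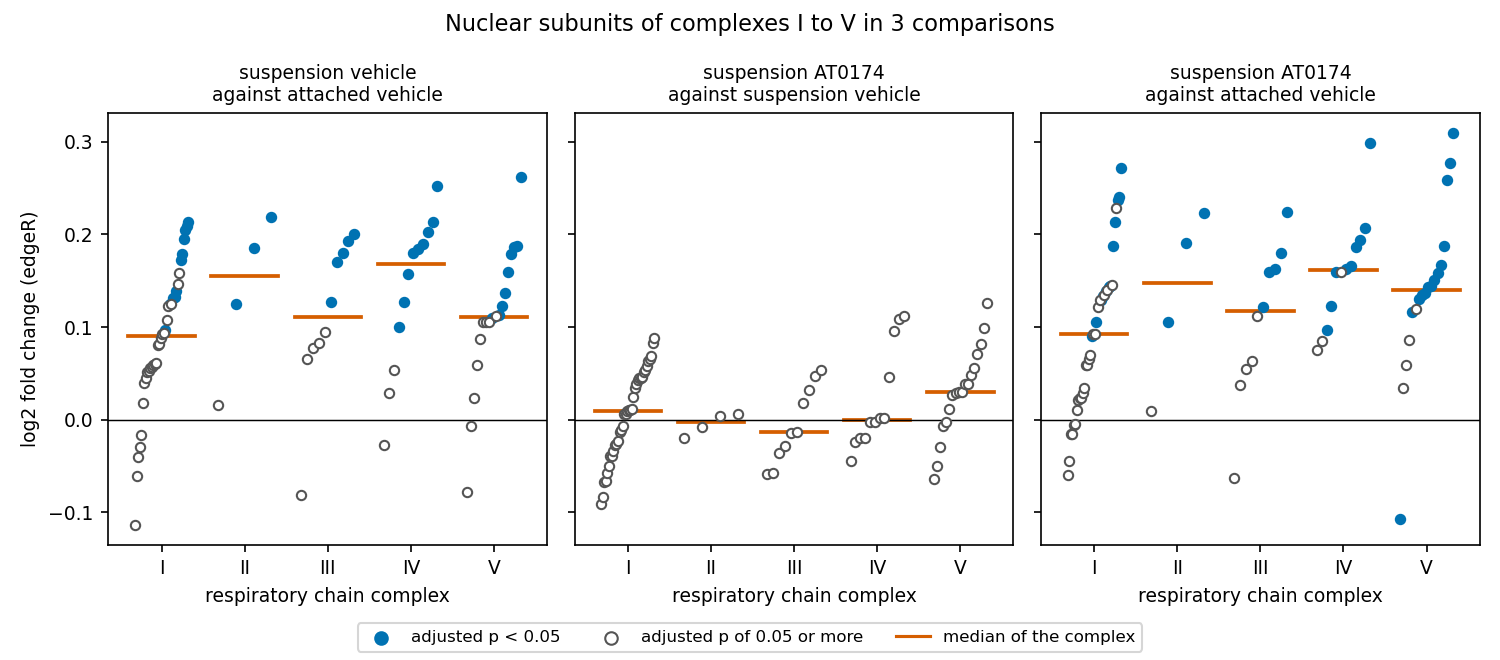
Log2 fold change of each of the 80 nuclear subunits by complex in 3 comparisons, with filled points past an adjusted p of 0.05 (edgeR) and bars at the median of the complex. Most points lie above 0 in both comparisons with attached cells, and none is filled for AT0174 against vehicle in suspension. Comparisons that share a condition use the same libraries.

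In complex I, 11 of 36 subunits rose in suspension, or 30.6%, where 10.4% of all genes were higher. The median over the 36 was 0.09 on the log2 scale. The matrix arm, which holds the flavin and the iron-sulfur clusters, had 3 of 16 higher, or 18.8% (median 0.09). The membrane arm, which pumps the protons, had 8 of 20, or 40% (median 0.09). NDUFB4, a membrane arm subunit, had 93.06, 93.32 and 87.42 CPM in the attached libraries and 105.2, 105.3 and 102.9 CPM in suspension. All suspended libraries were above all attached ones, with a log2 fold change of 0.20 ± 0.036 (SE, n = 3, edgeR adjusted p = 0.00346). NDUFS4, a matrix arm subunit that stabilizes the electron input module, had 14.19, 15.74 and 14.09 CPM attached and 17.34, 16.21 and 17.32 CPM in suspension, a log2 fold change of 0.21 ± 0.0615 (edgeR adjusted p = 0.0305). NDUFA2, also of the matrix arm, had 30.11, 28.75 and 28.92 CPM attached and 32.45, 36 and 33.34 CPM in suspension, and its log2 fold change was 0.21 ± 0.053 (edgeR adjusted p = 0.0143). NDUFB6, in the membrane arm, ranged from 34.95 to 40.7 CPM attached and from 41.16 to 44.38 CPM in suspension, so its groups were separated by a narrow gap. NDUFB4 was the most abundant of these 4 in CPM and had the smallest adjusted p of complex I.

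The 7 subunits of the catalytic core of complex I carry its electrons from NADH to ubiquinone. Of them 1 was called higher, or 14.3%, near the 10.4% of all genes. This was NDUFS1, the largest iron-sulfur subunit, with 142.3, 136.9 and 133.0 CPM attached and 155.5, 148.9 and 147.1 CPM in suspension (log2 fold change 0.13 ± 0.034, edgeR adjusted p = 0.0181). NDUFV1, which binds NADH and the flavin, had 211.8, 213.0 and 211.8 CPM attached and 206.6, 209.1 and 208.1 CPM in suspension. Its suspended libraries lay just below the attached ones, at a log2 fold change of −0.03 ± 0.042 (edgeR adjusted p = 0.666). NDUFA11 and NDUFB1, both in the membrane arm, also had every suspended library below every attached one, with log2 fold changes of −0.11 and −0.06 and edgeR adjusted p of 0.179 and 0.257.

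Complex II, the only complex with no mitochondrially encoded subunit, had 3 of its 4 genes higher, where 10.4% of all genes were. The median log2 fold change over the 4 was 0.155. SDHD, one of its membrane anchors, had 38.48, 40.95 and 37.57 CPM attached and 43.51, 48.01 and 44.59 CPM in suspension (log2 fold change 0.22 ± 0.049, edgeR adjusted p = 0.00889). SDHC, the other anchor, rose from 75.47, 70.36 and 69.76 CPM to 78.96, 82.18 and 83.83 CPM (0.18 ± 0.040 on the log2 scale, edgeR adjusted p = 0.00761). SDHB rose from 74.68, 76.0 and 76.17 CPM to 83.2, 81.59 and 82.64 CPM (0.12 ± 0.034 on the log2 scale, edgeR adjusted p = 0.0223). For each of these genes the suspended and attached libraries did not overlap. SDHA, the catalytic flavoprotein, ranged from 167.0 to 172.6 CPM attached and from 169.2 to 172.9 CPM in suspension, with overlapping groups and a log2 fold change of 0.02 ± 0.029 (edgeR adjusted p = 0.733).

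In complex III, 5 of 10 subunits rose, where 10.4% of all genes were higher, and the median over the 10 was 0.11. Those that rose included both electron-carrying nuclear subunits. UQCRFS1, the Rieske iron-sulfur protein, had 88.09, 87.93 and 77.71 CPM attached and 97.13, 98.23 and 96.0 CPM in suspension, a log2 fold change of 0.20 ± 0.045 (edgeR adjusted p = 0.00918). CYC1, cytochrome c1, had 112.1, 107.5 and 105.6 CPM attached and 121.9, 124.0 and 122.6 CPM in suspension, a log2 fold change of 0.18 ± 0.035 (edgeR adjusted p = 0.00393). UQCRQ and UQCR11, small subunits of the membrane part, rose by 0.19 and 0.17 on the log2 scale with edgeR adjusted p of 0.0202 and 0.0341. UQCRC2, a core subunit, rose by 0.13 (edgeR adjusted p = 0.0162), while its partner UQCRC1 had 0.09 with an edgeR adjusted p of 0.0799. UQCRB, which contacts the ubiquinone site, had 118.5, 113.1 and 111.7 CPM attached and 114.0, 101.8 and 109.0 CPM in suspension, with overlapping groups and an edgeR adjusted p of 0.199.

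Complex IV had the highest median log2 fold change of the 5 complexes, 0.168, followed by complex II at 0.155. In complex IV 9 of 12 subunits were higher, or 75%, the same share as in complex II, where 10.4% of all genes were higher. With NDUFA4 counted with complex I, complex IV had 8 of 11 higher and a median of 0.157, close to that of complex II. Complex I then had 12 of 37 higher. The medians were not tested against each other. NDUFA4 had 56.99, 55.09 and 52.14 CPM attached and 61.81, 66.69 and 67.03 CPM in suspension, a log2 fold change of 0.25 ± 0.058 (edgeR adjusted p = 0.00996). COX7B, a small transmembrane subunit, had 54.24, 55.42 and 54.25 CPM attached and 67.23, 60.5 and 62.43 CPM in suspension (0.21 ± 0.045 on the log2 scale, edgeR adjusted p = 0.00644). COX7A2, which lies at the dimer and supercomplex contacts, had 62.53, 61.89 and 56.55 CPM attached and 69.12, 69.48 and 69.65 CPM in suspension (0.20 ± 0.044 on the log2 scale, edgeR adjusted p = 0.00762). In each of the 3 genes every suspended library exceeded every attached one. COX8A rose by 0.19 (edgeR adjusted p = 0.00756), and COX7A2L, which helps to join complexes III and IV, by 0.16 (edgeR adjusted p = 0.0122). COX4I1 rose by 0.10 (edgeR adjusted p = 0.0453), a call lost under 8 of the 17 alternatives, and COX7C was called at an edgeR adjusted p of 0.0454 although its groups overlapped. COX5A, COX5B and COX6C, with log2 fold changes of 0.05, 0.03 and −0.03, did not pass the test.

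In complex V, 9 of 18 subunits rose, where 10.4% of all genes were higher, with a median log2 fold change of 0.11 over the 18. ATP5MK, a small membrane subunit known for the stability of ATP synthase dimers, changed the most of all 80: 33.7, 34 and 33.14 CPM attached against 38.24, 41.19 and 41.42 CPM in suspension, or 0.26 ± 0.044 on the log2 scale (edgeR adjusted p = 0.00186). ATP5F1B, the catalytic beta subunit and the most abundant of the subunits in CPM, had 597.7, 602.1 and 577.2 CPM attached and 660.1, 688.7 and 674.3 CPM in suspension. Its log2 fold change was 0.19 ± 0.030, with the smallest adjusted p of the 80 (edgeR, 0.00167). ATP5F1A, the alpha subunit, had 473.6, 465.0 and 451.6 CPM attached and 491.2, 509.4 and 513.4 CPM in suspension (0.12 ± 0.036 on the log2 scale, edgeR adjusted p = 0.029). By part of the enzyme, 3 of 5 F1 head genes, 2 of 3 c ring genes, 1 of 4 peripheral stalk genes and 3 of 5 membrane subunit genes were higher. ATP5MC2 of the c ring rose by 0.19 (edgeR adjusted p = 0.0115) and ATP5ME of the membrane part by 0.18 (edgeR adjusted p = 0.0268).

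ATP5IF1, which blocks ATP hydrolysis by the enzyme when the proton gradient fails, had the only unadjusted p under 0.05 on the lower side. Its attached libraries had 229.9, 228.8 and 231.2 CPM, its suspended vehicle libraries 229.9, 210.3 and 213.3 CPM, and its AT0174 libraries 209.6, 212.7 and 218.3 CPM. Replicate 1 of the suspended vehicle cells lay within the attached range and the other two below it, and the log2 fold change was −0.08 ± 0.036 (edgeR adjusted p = 0.143). Without that replicate it was −0.12 with an edgeR adjusted p of 0.0305.

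**Figure D3:**
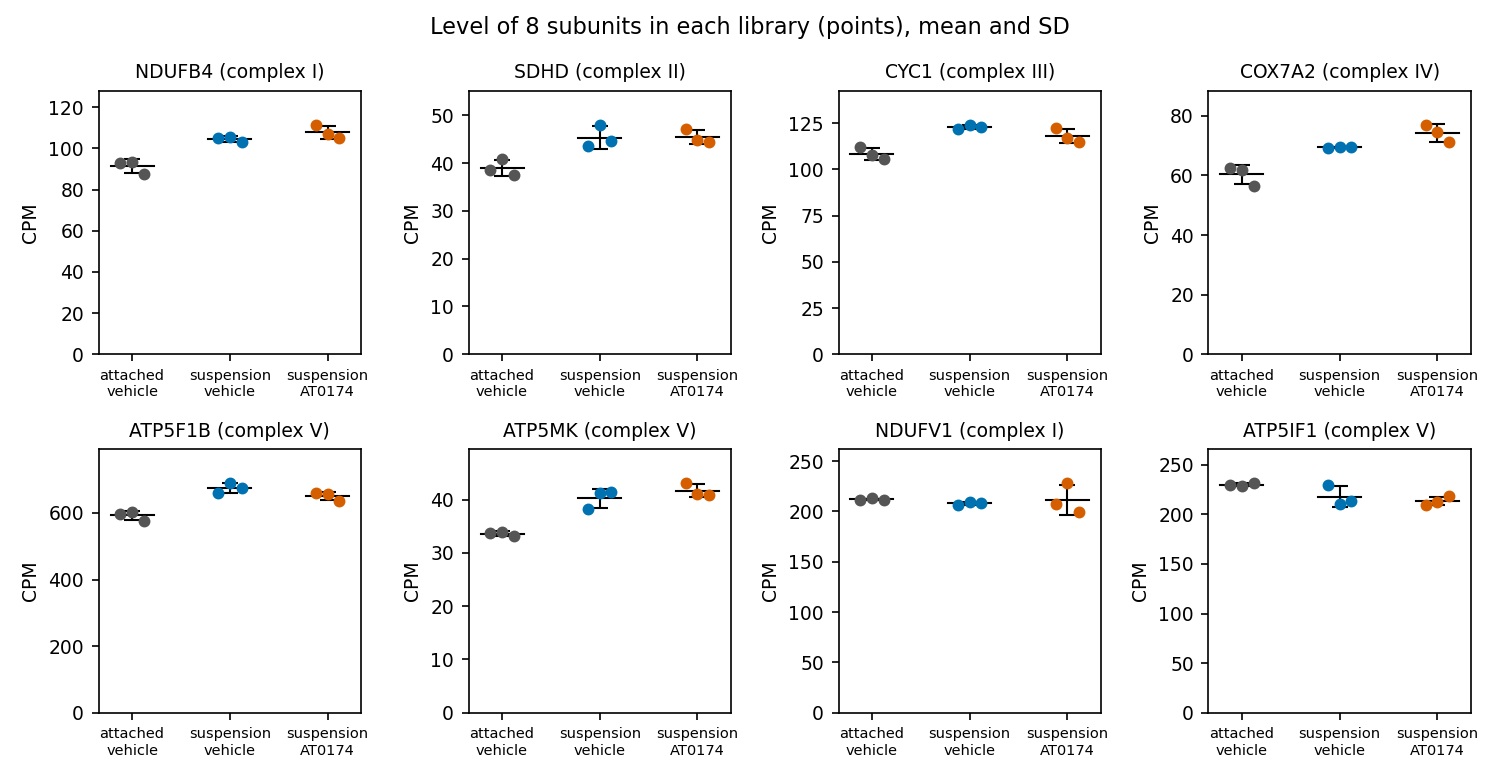
Level of 8 subunits in each of the 9 libraries, in CPM from 0, with the mean and SD of each condition. NDUFB4, SDHD, CYC1, COX7A2, ATP5F1B and ATP5MK are higher in every suspended vehicle library than in every attached one, NDUFV1 is slightly lower, and the ATP5IF1 groups overlap.

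The promoters of the subunits were searched for the binding motifs of factors known to drive respiratory genes, and 5 are shown, those of ATP5MK, NDUFB4, SDHD and NDUFS4, which rose, and of NDUFV1, which did not pass the test. Each runs from 250 bases before to 50 after a RefSeq start site (GRCh38.p14), 5′ to 3′ on the strand of the gene, with motif matches in capitals. The motifs were CCGGAAG (the ETS core of GABP), the NRF1 palindrome, the shorter NRF1 core GCATGCG, which the palindrome contains, and AAGATGGC (YY1), read on both strands. The windows lie at chr10:103396426-103396725 (minus strand), chr3:120596086-120596385 (plus), chr11:112086623-112086922 (plus), chr5:53560389-53560688 (plus) and chr11:67606686-67606985 (plus), in the order of the sequences.
ATP5MK: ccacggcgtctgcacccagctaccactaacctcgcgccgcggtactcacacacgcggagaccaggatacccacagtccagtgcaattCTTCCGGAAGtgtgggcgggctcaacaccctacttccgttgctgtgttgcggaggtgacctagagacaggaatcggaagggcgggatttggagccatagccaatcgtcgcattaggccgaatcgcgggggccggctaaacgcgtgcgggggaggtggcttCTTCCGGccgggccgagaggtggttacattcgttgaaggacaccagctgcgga
NDUFB4: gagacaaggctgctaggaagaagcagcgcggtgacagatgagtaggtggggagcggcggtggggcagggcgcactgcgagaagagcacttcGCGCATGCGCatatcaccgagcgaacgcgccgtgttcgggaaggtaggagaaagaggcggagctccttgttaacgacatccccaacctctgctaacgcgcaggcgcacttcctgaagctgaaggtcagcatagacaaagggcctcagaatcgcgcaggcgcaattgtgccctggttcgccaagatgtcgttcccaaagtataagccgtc
SDHD: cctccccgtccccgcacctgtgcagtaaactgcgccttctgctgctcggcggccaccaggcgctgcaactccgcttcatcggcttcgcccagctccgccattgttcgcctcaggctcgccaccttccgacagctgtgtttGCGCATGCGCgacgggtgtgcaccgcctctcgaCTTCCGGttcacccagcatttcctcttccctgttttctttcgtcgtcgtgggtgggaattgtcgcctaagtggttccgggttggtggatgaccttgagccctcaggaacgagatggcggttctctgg
NDUFS4: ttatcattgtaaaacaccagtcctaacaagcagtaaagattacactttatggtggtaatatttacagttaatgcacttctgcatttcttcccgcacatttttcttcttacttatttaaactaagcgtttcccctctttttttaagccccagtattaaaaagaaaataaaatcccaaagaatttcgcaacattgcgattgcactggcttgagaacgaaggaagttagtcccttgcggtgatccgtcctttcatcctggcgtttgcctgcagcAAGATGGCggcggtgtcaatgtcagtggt
NDUFV1: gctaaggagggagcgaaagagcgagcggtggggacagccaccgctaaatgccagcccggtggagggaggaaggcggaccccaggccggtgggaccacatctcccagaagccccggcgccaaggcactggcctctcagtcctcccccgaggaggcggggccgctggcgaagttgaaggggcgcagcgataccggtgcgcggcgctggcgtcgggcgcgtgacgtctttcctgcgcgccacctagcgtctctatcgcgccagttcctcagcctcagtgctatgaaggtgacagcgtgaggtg

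In the ATP5MK window the ETS core was found 3 times, starting 163, 160 and 3 bases before the start site, with the first 2 overlapping. NDUFB4 held the NRF1 palindrome starting 159 bases before the start, and SDHD held it at 110 bases with an ETS core at 77 bases. In NDUFS4 the YY1 motif started at base 22 after the start. None of these letters was in the NDUFV1 window, which says only that they are not in this stretch. Promoter windows were listed for 65 of the 80 subunits, 78 windows in all, and a gene was counted where at least 1 of its windows held the motif. The ETS core was found for 32.3% of these 65 genes, against 22.5% of the 10722 genes tested with a window and 12.2% of all 27305 genes with one. Counted by window it was in 28.2%, 17% and 10.3%. The shorter NRF1 core was found for 21.5% of the genes, against 7.84% and 4.74%, the palindrome for 6.15%, against 2.73% and 1.52%, and the YY1 motif for 18.5%, against 6.48% and 3.52%. By complex the ETS core was found for 5 of 31 genes of complex I, 2 of 3 of complex II, 3 of 7 of complex III, 5 of 10 of complex IV and 6 of 14 of complex V. It was found for 13 of 29 genes that rose and 8 of 36 that did not pass the test, or in 33.3% and 23.1% of the 39 windows of each set. The YY1 motif had 4 of 29 and 8 of 36 genes, the shorter NRF1 core 7 of 29 and 7 of 36, and the palindrome 3 of 29 and 1 of 36, all descriptions with no test. These are matches of letters, not sites of binding.

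Of 11 regulators of respiratory genes, 2 were higher in suspension, where 10.4% of all genes were: MYC by 0.48 ± 0.046 and TFAM, the factor that packages and transcribes mitochondrial DNA, by 0.15 ± 0.037 on the log2 scale (edgeR adjusted p of 4.38e-05 and 0.0159). Of the factors behind the motifs, NRF1, GABPA and YY1 had log2 fold changes of 0.12, 0.09 and −0.01 with edgeR adjusted p of 0.0974, 0.136 and 0.852.

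The subunits encoded in the mitochondrial DNA moved the other way. All 13 were called lower in suspended vehicle than in attached cells (edgeR adjusted p under 0.05), where 10.8% of all genes were. Their median was −1.06 on the log2 scale, while the median of their 80 nuclear partners was 0.11. Summed TPM of the 13 was 162900, 158300 and 190400 in the attached libraries and 97960, 94930 and 93640 in the suspended vehicle libraries. The ratio of summed TPM of the nuclear subunits to that of the mitochondrially encoded ones was 0.109, 0.112 and 0.0881 attached, 0.202, 0.213 and 0.217 in suspension, and 0.243, 0.159 and 0.184 with AT0174. It was thus higher in each suspended library than in each attached one, and the 2 suspended conditions overlapped. As TPM adds up to a fixed total, the nuclear sum was also rescaled to the TPM total without the 13 genes, which gave 21180, 21070 and 20730 attached, 21960, 22370 and 22390 in suspension, and 22260, 21940 and 21450 with AT0174. With genes of the mitochondrial DNA left out before scaling, edgeR again called 37 subunits higher and 0 lower, with 21.2% of all genes called in that fit. At an unadjusted p under 0.05 it had 48 subunits in either direction. The full table had 49, where 5290 of 15528 genes tested passed that cut. DESeq2 and limma-voom on the full table also called 0 lower.

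**Figure D4:**
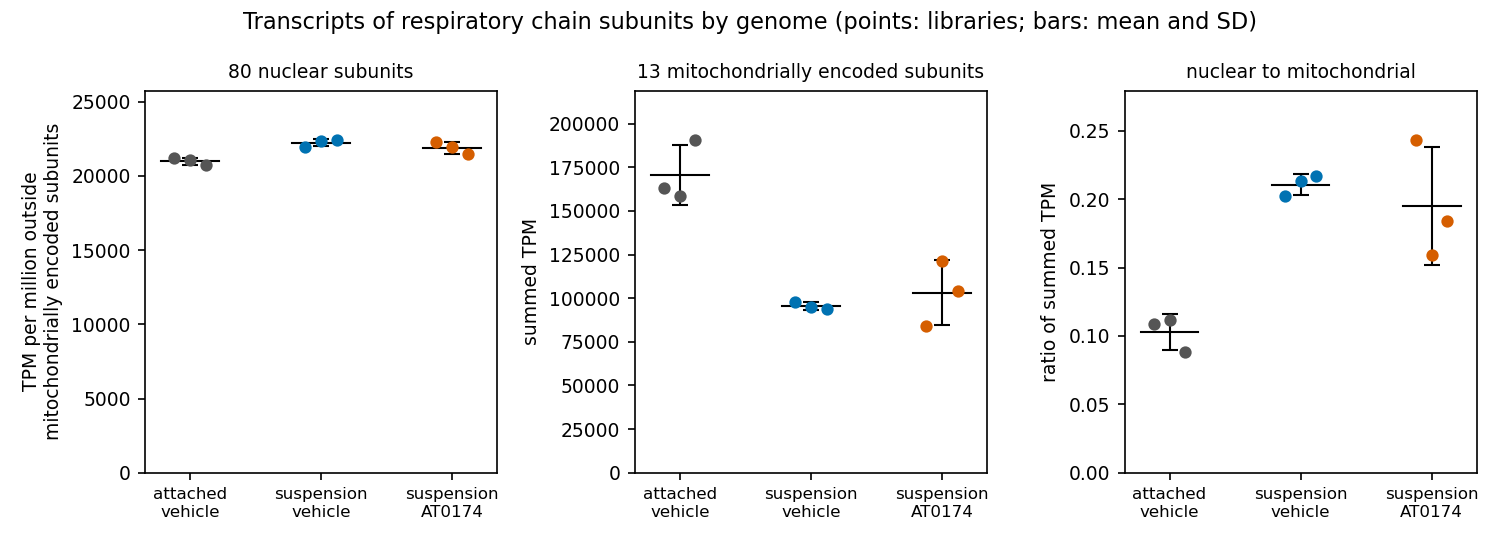
Summed TPM of the 80 nuclear subunits, rescaled to the total without the 13 mitochondrially encoded subunits, summed TPM of those 13, and the ratio of nuclear to mitochondrially encoded TPM, for each of the 9 libraries with mean and SD. The ratio was 0.103 in attached, 0.211 in suspended vehicle and 0.195 in suspended AT0174 cells on average.

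The split of the nuclear TPM among the complexes was compared with no test. In attached cells the share was 37.5% ± 0.071 for complex I, 2.2% ± 0.031 for complex II, 11% ± 0.059 for complex III, 18.9% ± 0.048 for complex IV and 30.5% ± 0.082 for complex V (SD, n = 3). In suspended vehicle cells it was 36.9% ± 0.23, 2.28% ± 0.048, 10.9% ± 0.088, 19.3% ± 0.15 and 30.6% ± 0.13. Complex I ranged from 37.5% to 37.6% in the attached libraries and from 36.6% to 37.0% in the suspended vehicle libraries, and complex IV from 18.8% to 18.9% and from 19.2% to 19.5%, so the first was lower and the second higher in suspension with no overlap. The shares of complexes II and III overlapped.

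Cytochrome c, CYCS, the carrier between complexes III and IV, rose by 0.15 on the log2 scale (edgeR adjusted p = 0.0159), and NDUFAB1, the acyl carrier protein in complex I, by 0.22 (edgeR adjusted p = 0.00709). Of 58 assembly factors, 20 were higher and 2 lower in suspended vehicle cells, where 10.4% of all genes were higher and 10.8% lower, and the median over the 58 was 0.10. Complex IV factors made up 12 of the 20, out of 25, and they included the copper carrier COX17, up 0.29 ± 0.045 (edgeR adjusted p = 0.00113), and LRPPRC, which stabilizes mitochondrial mRNA, up 0.20 ± 0.045 (edgeR adjusted p = 0.00907). Complex I factors showed both directions, with NDUFAF4, NDUFAF3, NUBPL and ECSIT higher and NDUFAF2 and NDUFAF7 lower.

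The next comparison asked whether AT0174 changed these transcripts in suspended cells, and it uses the suspended vehicle libraries of the first. With edgeR 0 of the 80 subunits were called, against 0.779% of all genes, 0.522% higher and 0.258% lower, and DESeq2 and limma-voom also called 0. At an unadjusted p under 0.05 there were 4 of the 80 in edgeR, where 1401 of all 15528 genes tested passed. At that cut DESeq2 had 1 and limma-voom 5, and the share over all genes in those fits is not reported here. The median log2 fold change was 0.01, against 0.00 over all genes, single values ran from −0.09 to 0.13, and 46 of the 80 were positive, against 50.7% of all genes. By complex the medians were 0.01, 0.00, −0.01, 0.00 and 0.03 for complexes I to V.

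The 4 subunits with an unadjusted p under 0.05 were chosen for that after their values were seen. COX6C had 60.28, 61.62 and 61.32 CPM with vehicle and 66.32, 64.49 and 67.18 CPM with AT0174, a log2 fold change of 0.11 ± 0.034 with an edgeR adjusted p of 0.245. COX5A had 43.49, 40.49 and 41.26 CPM with vehicle and 47.33, 43.76 and 43.86 CPM with AT0174 (edgeR adjusted p = 0.499). COX7A2 had 69.12 to 69.65 CPM with vehicle and 71.08 to 76.94 CPM with AT0174 (edgeR adjusted p = 0.54). NDUFA5, a matrix arm subunit of complex I, had 51.62 to 52.37 CPM with vehicle and 47.65 to 49.8 CPM with AT0174 (edgeR adjusted p = 0.498). The AT0174 and vehicle libraries of each of the 4 did not overlap, 3 complex IV genes above and NDUFA5 below. Of all 80 subunits, 5 had all AT0174 libraries above the vehicle ones and 3 all below, where this held for 7.75% and 7.66% of all genes.

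The last comparison set suspended AT0174 cells against attached vehicle cells, so that culture and treatment differ together, and it shares the attached libraries with the first comparison and the AT0174 libraries with the second. Here 42 subunits were higher and 1 was lower, against 24% of all genes in either direction, 12.2% higher and 11.8% lower, and the median over the 80 was 0.13. The fold change was positive for 72, against 49.6% of all genes, and the AT0174 libraries lay all above the attached ones for 54 and all below for 2, against 20.4% and 19.1%. The count was 18 without AT0174 replicate 1 and 20 without attached replicate 3, with 14.2% and 15.1% of all genes called in the same fits. By complex, 12 of 36, 3 of 4, 5 of 10, 9 of 12 and 13 of 18 were higher in complexes I to V, and the 1 lower gene was in complex V.

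ATP5MK again had the largest value, with 43.05, 41.01 and 40.89 CPM in AT0174 cells (log2 fold change 0.31 ± 0.043 against attached cells, edgeR adjusted p = 0.000487). COX7A2 followed with 76.94, 74.59 and 71.08 CPM (0.30 ± 0.044, edgeR adjusted p = 0.000689), then ATP5ME at 0.28, NDUFS4 at 0.27 and ATP5MC2 at 0.26. All libraries of these 5 genes lay above the attached ones.

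Among the called genes of complex I the next values were 0.24 for NDUFB4, 0.24 for NDUFB5 and 0.21 for NDUFB9, all membrane arm subunits, with edgeR adjusted p of 0.000806, 0.000927 and 0.00282. NDUFS8 of the core was called, at 0.11 on the log2 scale, and NDUFS1 had 0.09 with an edgeR adjusted p of 0.0689. In complex II the anchors SDHD and SDHC had 0.22 and 0.19 and SDHB 0.10, with SDHA at 0.01 (edgeR adjusted p = 0.861). In complex III the values were 0.22 for UQCR11, 0.18 for UQCRQ, 0.16 for UQCRFS1, 0.16 for UQCRC2 and 0.12 for CYC1. In complex IV they were 0.21 for NDUFA4, 0.19 for COX7B and 0.19 for COX6B1. The called genes of complexes I to IV named here, apart from NDUFS4, COX7A2 and the 3 membrane arm genes, had edgeR adjusted p between 0.00423 and 0.0417.

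All 3 c ring genes and all 4 peripheral stalk genes were called higher, where 12.2% of all genes were. Suspension with vehicle had given 2 and 1, where 10.4% of all genes were higher. Those missing in the first comparison, ATP5MC1, ATP5PD, ATP5PF and ATP5PO, had log2 fold changes of 0.11, 0.09, 0.11 and 0.10 there and of 0.19, 0.12, 0.15 and 0.14 here. None of them was called between AT0174 and vehicle in suspension (edgeR adjusted p of 0.669, 0.853, 0.856 and 0.899). ATP5IF1 was the 1 gene called lower, at −0.11 ± 0.036 on the log2 scale (edgeR adjusted p = 0.0464), with all 3 AT0174 libraries below the attached range. This call was lost under 10 of the 17 alternatives, each omission of a library among them.

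The transcripts that make up a gene's total were also compared, with transcript types from the GENCODE annotation. Its release was not that of the Ensembl annotation the authors quantified against, so a type may differ between them. Transcripts absent from the GENCODE release had no type but stayed in the totals. In the exact two-sided permutation test 3 libraries against 3 cannot reach p under 0.10, so these are descriptions, chosen after the values were seen. NDUFV1 did not pass the test in its gene total. Its coding transcript NDUFV1-201 took 61.2% ± 3.7 of its TPM in attached cells, 70.6% ± 2.5 in suspended vehicle cells and 72.3% ± 3.3 with AT0174 (SD, n = 3, exact p = 0.1 for suspended vehicle against attached). Its retained-intron transcripts took 21.1%, 20.4% and 24.8% attached and 13.7%, 13.1% and 14.6% in suspension, with no overlap, and 11.3%, 17.6% and 14.2% with AT0174. In NDUFA7, a matrix arm subunit of complex I, transcripts marked for nonsense-mediated decay took 11.5%, 18.1% and 14.1% attached, 5.02%, 3.97% and 5.22% in suspension and 7.32%, 7.77% and 5.5% with AT0174. SDHC-202, the main transcript of SDHC, took 84.5% to 85.3% attached, 77.3% to 78.0% in suspension and 84.6% to 84.9% with AT0174. Here the suspended vehicle libraries were lower than all others and the AT0174 libraries overlapped the attached ones.

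Over the whole set the retained-intron share was 3.38% ± 0.21 of the subunits' TPM in attached cells, 3.03% ± 0.12 in suspended vehicle cells and 3.02% ± 0.16 with AT0174, and over all genes tested outside the mitochondrial DNA 8.87% ± 0.56, 7.6% ± 0.081 and 7.66% ± 0.48. Of the 51 subunits with such a transcript, 14 had all suspended vehicle libraries below the attached ones and 1, UQCRQ, above, or 27.5% and 1.96%, against 18.2% and 2.66% of 7626 genes. NDUFS7 and NDUFS8, core subunits of complex I, were among the 14, at 8.84% against 4.92% and 8.75% against 5.98% on average. For NDUFA4 63.5% and for NDUFA9 74.2% of the attached TPM was assigned to retained-intron transcripts, so their gene totals rest mostly on transcripts that are not annotated as coding. Other subunits had a similar limit. For COX6C 87.1% of the attached TPM was in COX6C-207, marked for nonsense-mediated decay. For NDUFC1 87.7% was in NDUFC1-202, which has no defined coding sequence. The main transcript of NDUFV3, at 36.3% attached, and its second, at 33.3% over all libraries, had none either.

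**Figure D5:**
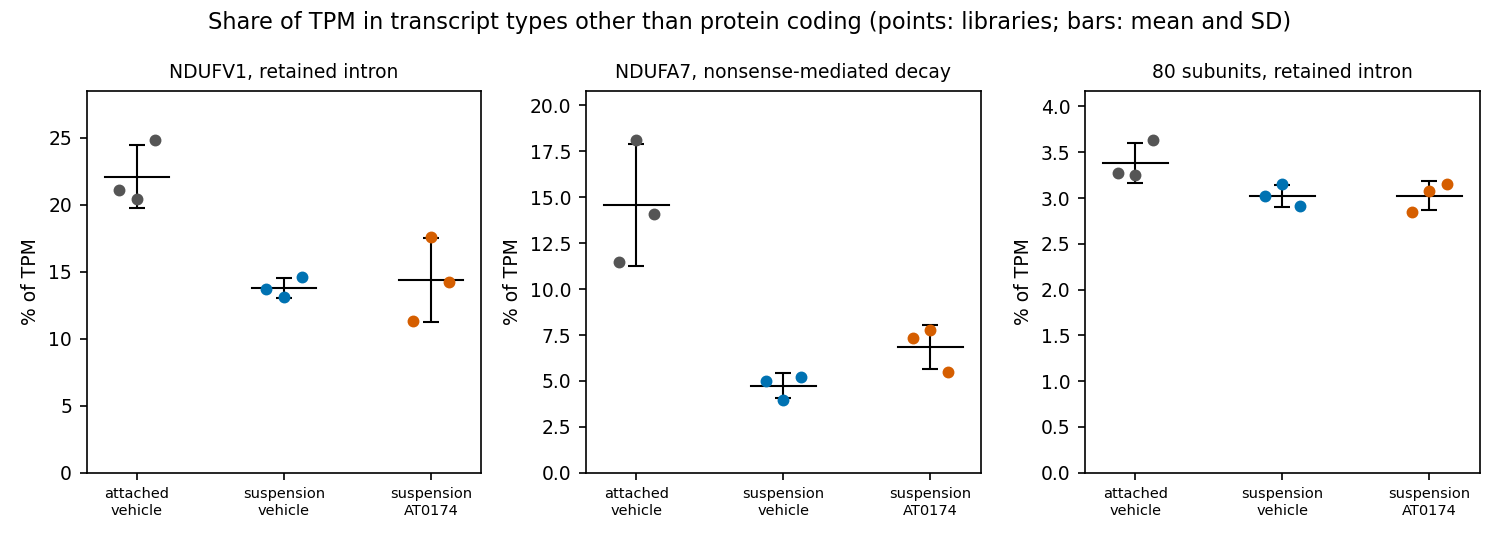
Share of TPM in retained-intron transcripts of NDUFV1, in nonsense-mediated decay transcripts of NDUFA7 and in retained-intron transcripts of all 80 subunits, in % for each library, with mean and SD. In each panel the 3 attached libraries lie above the 3 suspended vehicle libraries.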

How the data were processed

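The authors quantified reads with Salmon 1.10.1 after Trim Galore 0.6.7, Cutadapt 3.4 and STAR 2.7.9a on GRCh38, per the labels and the methods, and deposited estimated counts per gene and TPM and estimated counts per transcript, with no normalization of the counts. The labels name a SMARTER kit and the methods a Universal Plus mRNA kit. Which was used, and whether reads were stranded, was not settled, and pseudogenes may share reads with the subunits.

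Counts were rounded to whole numbers, filtered with filterByExpr of edgeR 4.0.16 in R 4.3.3 (15528 genes), scaled by TMM and fitted over all 9 libraries by quasi-likelihood, with condition as the only term and p-values adjusted over all genes. They measure the spread between these libraries. SE is the log2 fold change over the root of F. The procedure was tested on simulated data. The planted changes were larger than most of those in the subunits, so the recovery of smaller ones was not tested. The authors' TPM were summed by gene for levels. Promoters came from RefSeq.

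The members and lists were chosen with earlier results of these data known. Named genes are, per complex and comparison, up to 4 called genes with the largest change and separate groups, the catalytic and paralogous subunits, the highest and lowest in TPM, ATP5IF1 and NDUFA4. Others were chosen after their values were seen. Some genes that this rule names are not reported here. The alternatives were DESeq2 1.42.0 and its size factors, limma-voom (limma 3.58.1), no or a stricter filter, the 6 libraries of a comparison, a replicate block, counts rebuilt from TPM, an adjusted p under 0.01, members of at least 100 counts, NDUFA4 counted with complex I, the most abundant transcript, each library left out and, added after seeing the data, genes of the mitochondrial DNA left out.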

Additional observations from a re-analysis of the deposited data

How the results depend on the processing

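Directions of the median log2 fold change held under every alternative in both comparisons with attached cells. With counts rebuilt from TPM, 21 subunits were called in suspended vehicle against attached cells and 28 in AT0174 against attached cells, against 8.37% and 10.8% of all genes, and with an adjusted p under 0.01, 13 and 17, against 9.05% and 11.8%. With one library left out at a time, the calls ranged from 16 to 32 and from 18 to 42, against 12.2% to 17% and 14.2% to 20.7% of all genes, and the medians from 0.10 to 0.12 and from 0.10 to 0.14. For AT0174 against vehicle the calls were 0 throughout, and the median ranged from −0.01 to 0.02. With the most abundant transcript only, the attached sums were 5067 TPM for complex I, 303.2 for complex II, 1405 for complex III, 2949 for complex IV and 4237 for complex V, lower by construction. Of the 37 and 43 named calls, 10 and 17 held under all 17 alternatives, and none changed sign. Replicate numbers did not pair the libraries, with correlations of −0.07 to 0.05 between same-numbered ones. A replicate block gave 34, 0 and 42 calls in the 3 comparisons, against 20.9%, 0.94% and 23.7% of all genes. Of the 37 and 43 named calls, 33 and 40 held under the block and 7 were lost, and the other calls were new.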
